A study of Mus musculus with 53 samples.

Results

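Astrocytes of the hypothalamus were followed through 35 genes of astrocyte identity, transport and metabolism, taken by gene symbol from a given list of members and matched through the GENCODE annotation of GRCm38. Each of the 35 symbols matched 1 of the 53379 Ensembl gene identifiers in the count tables. All 35 passed the filter on low counts in every fit described here. The members hold 5 neurotransmitter and amino acid carriers, 10 genes of ion, water and zinc handling and of cell junctions, 9 of metabolic enzymes and lipid binding, 3 receptors, 5 secreted, matrix or calcium-binding proteins and 3 transcription regulators.

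RNA was sequenced from the paraventricular nucleus (PVN) and the arcuate nucleus (ARC) of the hypothalamus, cut by laser from stained coronal sections of adult C57BL/6 mice whose protocol gives an age of 13 to 14 weeks. Mice were wild type (*Nnat*+/+, WT) or carried a null allele of the imprinted gene *Nnat* inherited from the father (*Nnat*+/-p), on chow or on 45% high-fat diet (HFD), and the chow-fed *Nnat*+/-p mice were classed by weight, as obese or non-obese. The 49 libraries used were 19 of the male PVN (3 WT chow, 3 *Nnat*+/-p non-obese chow, 4 *Nnat*+/-p obese chow, 6 WT HFD and 3 *Nnat*+/-p HFD), 20 of the male ARC (2, 4, 4, 6 and 4 in the same order) and 10 of the chow-fed female PVN (4 WT, 3 non-obese and 3 obese *Nnat*+/-p). Every cell of an *Nnat*+/-p mouse carries the null allele, and a captured nucleus is a mixture of neurons, glia and vessels. A difference between genotypes therefore cannot be assigned to astrocytes or to another cell type.

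Astrocytes clear glutamate and GABA from synapses, buffer potassium and water, supply neurons with glutamine and lactate and are coupled to each other through gap junctions. The genes that carry out these tasks in unstimulated tissue are called homeostatic, in contrast to reactive genes such as *Gfap*, an intermediate filament that rises in injured or inflamed brain. In the hypothalamus astrocytes also sense nutrients and hormones and wrap the neurons that control feeding.

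The 3 groups of libraries (male PVN, female PVN and male ARC) were each deposited as a table of their own. Nucleus and sex therefore cannot be told apart from any batch that goes with a table. Total counts ran from 1479953 to 30228973 per library, and the 35 members took 0.259% to 0.700% of them. *Nnat* lay between 0.324 and 13.6 CPM (counts scaled to a common library size) in all *Nnat*+/-p libraries and between 270.4 and 573 CPM in all WT libraries. Replicate 15, labelled WT male PVN, stood apart, with a mean log2 CPM of 0.21 over 5 PVN neuron genes (*Avp*, *Oxt*, *Sim1*, *Crh* and *Trh*) and of 4.50 over 6 ARC neuron genes, and replicate 24 of the HFD-fed WT PVN had a PVN neuron mean of 3.17. In the other male PVN libraries the PVN neuron mean was 6.27 or more. Replicate 35, labelled WT male ARC with the same weight as replicate 15 (32.45 g) and left out for its depth, held 682 CPM of PVN neuron genes and 51.6 CPM of ARC neuron genes, so the neuron markers of both libraries go against their labelled nucleus. The labelled weights of replicates 24 and 51 (42.9 g) and of 30 and 44 (43.9 g) each join a WT library of 1 nucleus to an *Nnat*+/-p library of the other. Replicates 39 and 40 of the non-obese ARC share 34.3 g, genotype and diet, and whether they are of the same mouse cannot be told from the labels. The labels name no mouse for a library, so p-values measure the spread between these libraries, which may in part be technical.

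Promoters are shown for 5 members whose level differed between the nuclei: *Kcnj10*, *Aldoc* and *S100b*, which were lower in the PVN, and *Id4* and *Pla2g7*, the only 2 called higher there in the main fit. The 250 bases before the start site are from RefSeq (GRCm38.p6), 5′ to 3′ on the gene's own strand, and lie at chr1:172340960-172341209 (*Kcnj10*), chr11:78322823-78323072 (*Aldoc*), chr10:76253586-76253835 (*S100b*), chr13:48260866-48261115 (*Id4*) and chr17:43568201-43568450 (*Pla2g7*), all on the plus strand. For *Aldoc* it is the first of 2 RefSeq starts. The GENCODE genes start at 78322968 (*Aldoc*) and 43568098 (*Pla2g7*). The *Aldoc* stretch thus runs past that start, and the *Pla2g7* stretch lies inside the annotated gene. Capitals mark the letters of a SOX core (ACAAAG or ACAATG), a short NFI motif (TTGGCA), the palindromic NFI site or a CCAAT box (CCAAT), each searched on both strands.
Kcnj10: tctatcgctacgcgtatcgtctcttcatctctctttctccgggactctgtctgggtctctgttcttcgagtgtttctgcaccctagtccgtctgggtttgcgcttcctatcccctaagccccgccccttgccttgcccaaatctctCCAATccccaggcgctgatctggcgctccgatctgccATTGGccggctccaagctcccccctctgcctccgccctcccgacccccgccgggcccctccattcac
Aldoc: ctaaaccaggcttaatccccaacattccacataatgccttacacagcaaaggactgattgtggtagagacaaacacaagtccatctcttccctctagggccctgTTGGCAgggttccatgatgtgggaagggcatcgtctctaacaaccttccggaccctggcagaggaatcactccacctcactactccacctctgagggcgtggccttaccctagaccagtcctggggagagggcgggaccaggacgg
S100b: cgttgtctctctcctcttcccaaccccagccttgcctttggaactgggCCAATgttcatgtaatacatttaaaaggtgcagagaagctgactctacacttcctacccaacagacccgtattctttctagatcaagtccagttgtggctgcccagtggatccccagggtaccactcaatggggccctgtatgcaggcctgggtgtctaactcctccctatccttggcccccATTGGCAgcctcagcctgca
Id4: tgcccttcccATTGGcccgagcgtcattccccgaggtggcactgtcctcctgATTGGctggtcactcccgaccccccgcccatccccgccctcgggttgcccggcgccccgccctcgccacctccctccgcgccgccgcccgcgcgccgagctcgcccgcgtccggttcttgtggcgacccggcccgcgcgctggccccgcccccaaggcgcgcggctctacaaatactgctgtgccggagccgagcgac
Pla2g7: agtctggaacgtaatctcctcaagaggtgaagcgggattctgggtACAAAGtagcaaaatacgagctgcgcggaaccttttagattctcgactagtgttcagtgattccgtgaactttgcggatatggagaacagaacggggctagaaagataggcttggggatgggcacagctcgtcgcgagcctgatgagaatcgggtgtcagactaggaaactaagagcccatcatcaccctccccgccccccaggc

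SOX9 and nuclear factor I are transcription factors that drive astrocyte formation, which is why their letters were searched. RefSeq gave 33 promoters for 30 of the 35 members. The short NFI motif was in 3 of the 33 (*Aldoc*, *Hepacam* and *S100b*), against 12.3% of all 32851 promoters. The SOX core ACAAAG was in 3 (*Hes5*, *Pla2g7* and *Slc7a11*, against 16.5%) and ACAATG in 1 (*Hes5*, against 10.7%). No member held the palindromic NFI site, which was in 0.0365% of all promoters. CCAAT was in 19 of the 33, against 33.8% of all, and it overlaps the short NFI motif in *S100b*, where ATTGGCA carries both. These are matches of letters in a short window and no binding was measured.

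Per base of exon, the members spanned more than 2 orders of magnitude, and *Aldoc*, *Glul* and *Clu* were the 3 highest in the ARC. Expressed as CPM per kilobase of exon (RPKM), *Aldoc*, the brain aldolase of astrocytes, stood at 133 ± 24.4 in the ARC (SD, n = 20), 90.5 ± 21.7 in the male PVN (n = 19) and 108 ± 22.2 in the female PVN (n = 10). *Glul*, glutamine synthetase, stood at 132 ± 27.2, 103 ± 18.2 and 97.1 ± 21.0 RPKM in the same order. The difference between *Aldoc* and *Glul* was smaller than the spread of either in all 3 tables.

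The secreted chaperone *Clu* (89.1 ± 14.3 RPKM in the ARC, n = 20, 85.4 ± 14.7 in the male PVN and 109 ± 23.5 in the female PVN, where it was highest) and the glutamate transporter *Slc1a2* (86.9 ± 12.5 RPKM) came next, followed by *Atp1b2*, a subunit of the sodium pump, at 71.1 ± 15.1 RPKM. *Agt*, angiotensinogen, was at 60.5 ± 14.9 RPKM in the ARC and 64.8 ± 14.2 RPKM in the male PVN. *Slc6a11*, the GABA transporter GAT3, was at 60.4 ± 12.0 and 45.4 ± 8.57 RPKM. The lowest members were *Gldc*, the glycine decarboxylase (0.773 ± 0.328 RPKM in the ARC), *Cbs*, cystathionine beta-synthase (1.25 ± 0.596 RPKM), and *Slc7a11*, the cystine-glutamate exchanger (2.96 ± 0.851 RPKM). *Gldc*, *Cbs* and *Hes5* had no count at all in at least 1 library.

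**Figure D1:**
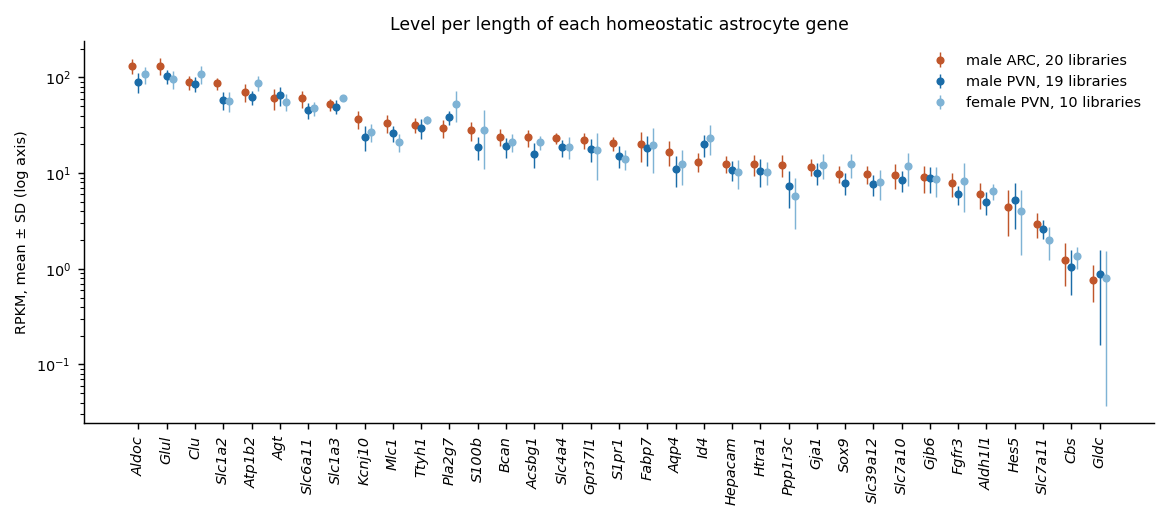
Level of each of the 35 genes per base of exon (RPKM, log axis), as mean ± SD over the libraries of the male ARC (20), male PVN (19) and female PVN (10), in the order of the ARC mean. Aldoc and Glul are highest and Gldc lowest in the ARC, while Id4 and Pla2g7 lie higher in the PVN than in the ARC.

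The spread within groups differed between members. The pooled SD within the 13 groups had a median of 0.40 on the log2 CPM scale over the 35 members. It was smallest for *Slc1a3*, the glutamate transporter GLAST (0.21), and for *Glul* (0.26), and largest for *Gldc* (1.27), the Notch target *Hes5* (1.04) and *Cbs* (0.96). A difference of the same size was therefore easier to see in *Slc1a3* and *Glul* than in these 3 sparse genes.

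The members moved together from library to library, though not all of them. Over the 39 male libraries, with each table centred on its mean, the correlation of a member with the mean of the other 34 was highest for *Agt* (r = 0.84), *Gja1*, the gap junction protein connexin 43 (r = 0.81), *Ttyh1* (r = 0.80) and *Slc1a2* (r = 0.80). It was near 0 for *Id4* (r = 0.01), *Gldc* (r = 0.02) and *Slc7a11* (r = 0.02), and below 0 for the water channel *Aqp4* (r = -0.20) and for *Hes5* (r = -0.26). Over the 595 pairs of members the median r was 0.25, and 79.2% of pairs were above 0. These are descriptions over libraries that share a table, and depth and the makeup of the capture differ between them.

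Among all genes kept, those whose pattern was most like the mean of the members included, by Pearson r over the same 39 libraries, *Scd2* (r = 0.84), *Shank1* (0.82), *Rab6b* (0.81), *Cep170b* (0.81), *Ppp1r9b* (0.80), *Brsk1* (0.80), *Fads2* (0.80), *Kif5a* (0.79) and *Kif1a* (0.79). The mean of the members followed that of 40 other astrocyte genes (r = 0.86), 12 pan-neuronal genes (r = 0.76) and 12 oligodendrocyte genes (r = 0.54) and did not follow 12 reactive astrocyte genes (r = -0.21).

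**Figure D2:**
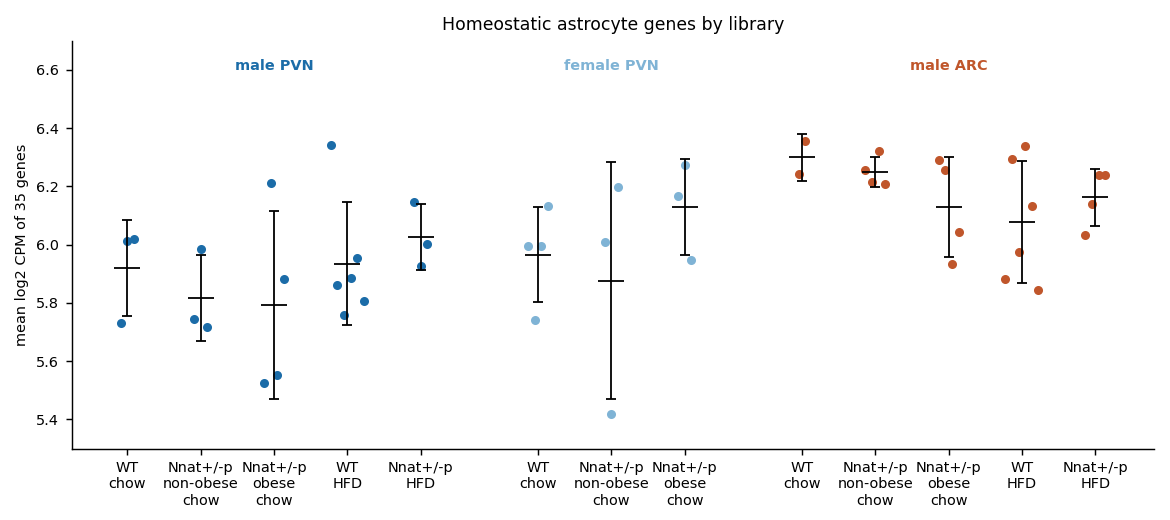
Mean log2 CPM of the 35 genes in each library, by nucleus, sex, genotype, weight class and diet, with the group mean and SD. Libraries of the ARC lie between 5.84 and 6.36, those of the male PVN between 5.52 and 6.34 and those of the female PVN between 5.42 and 6.27.

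Relative to the median gene, most homeostatic astrocyte genes were lower in the PVN than in the ARC of mice matched by their labels. Libraries of the 2 nuclei were tied to 15 male mice by equal genotype, diet and labelled weight, and were compared within mouse over all groups. No label names the mouse, so the same mouse here and below means such an inferred pair. Of the 35 members, 23 were lower and 2 higher in the PVN at an adjusted p under 0.25, and 21 had an unadjusted p under 0.05, beside 33.5% of all genes (edgeR quasi-likelihood test, Benjamini-Hochberg), and 31 of 35 fitted differences were negative. Between nuclei 42.1% of all 12421 genes tested were called, 20.6% higher and 21.5% lower in the PVN. The median difference of the members was -0.29 on the log2 scale, against -0.0019 over all genes tested. In bulk tissue fewer cells of a type and less RNA per cell cannot be told apart.

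The direction depends on what the counts are scaled to. Genes of mitochondrial and nuclear ribosomal RNA (*mt-Rnr1*, *mt-Rnr2* and *Gm42418*) took a median of 45.1% of counts in the ARC and 34.4% in the male PVN, with a lower share in the PVN in 15 of 15 mice. With library totals and no scaling factor 90.7% of all calls were higher in the PVN, the median of all genes moved to +0.37 and that of the members to +0.093, so the members stayed 0.28 below the median gene, and 31 of 35 stayed below it. With the 3 ribosomal RNA genes also left out the members were at -0.22 and all genes at +0.064, and 60.8% of calls were higher. With library totals over all genes 7 members were called lower (*Slc1a2*, *Aqp4*, *Kcnj10*, *Aldoc*, *Acsbg1*, *Ppp1r3c* and *S100b*) and 11 higher. Among the 11 were *Gja1* (+0.18) and *Atp1b2* (+0.20), which were called lower on the TMM scale. All differences between nuclei given below are relative to the TMM scale, on which the median over all genes was -0.0019.

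Among the carriers, *Slc1a2*, the main glutamate transporter of astrocytes, was lower in the PVN in 15 of 15 mice. Its level was 537, 719 and 1217 CPM (lowest, median and highest of 15) in the PVN and 769.8, 1164 and 1436 CPM in the ARC. The ranges overlap between mice, but within each mouse the PVN value was the lower one. The fitted difference was -0.61 (SE 0.07, adjusted p = 1.96e-07, edgeR). *Slc6a11* was lower in 14 of 15 mice (-0.40, SE 0.08, adjusted p = 0.000893, edgeR). The other 3 carriers did not pass: *Slc1a3* differed by -0.061, *Slc7a11* by -0.10 and *Slc7a10*, a neutral amino acid transporter, by -0.15.

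The channels and pumps showed the same order between nuclei. *Kcnj10*, the potassium channel Kir4.1, was lower in the PVN in 15 of 15 mice, at 70.9, 118 and 175 CPM against 93.4, 219 and 292 CPM in the ARC (-0.69, SE 0.08, adjusted p = 2.14e-07, edgeR). *Aqp4*, the water channel of astrocyte endfeet, was lower in 13 of 15 mice (-0.65, SE 0.13). *Slc4a4*, the sodium bicarbonate cotransporter, was lower in all 15 (-0.37, SE 0.07). *Mlc1* and *Hepacam*, which form a complex at astrocyte junctions and endfeet, differed by -0.40 and -0.33, and the smallest called differences of this group were those of *Gja1* (-0.20) and *Atp1b2* (-0.17). Of the 10 genes, 8 were called lower, and *Ttyh1* (-0.13) and the second gap junction gene *Gjb6* (-0.040) did not pass.

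Metabolic genes gave the largest difference of the list and its only enzyme in the other direction. *Ppp1r3c*, a subunit that targets a phosphatase to glycogen, was at 9.35, 17.2 and 32.1 CPM in the PVN and at 20.7, 34.8 and 48.0 CPM in the ARC, lower in the PVN in 13 of 15 mice (-0.89, SE 0.16, adjusted p = 0.00013, edgeR). *Aldoc* was lower in 13 of 15 mice, at 197, 294 and 429 CPM against 296, 427 and 536 CPM (-0.57, SE 0.08, adjusted p = 1.90e-06, edgeR). *Acsbg1*, a long-chain acyl-CoA synthetase, was lower in 14 of 15 mice, at 24.7, 50.3 and 86.1 CPM against 51.7, 89.4 and 98.5 CPM (-0.59, SE 0.11, adjusted p = 0.000252, edgeR). In each of the 3 genes the ranges of the nuclei overlap across mice, and the medians lie apart.

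*Glul* (-0.34), the fatty acid binding protein *Fabp7* (-0.32) and the folate enzyme *Aldh1l1* (-0.29) were also called lower. *Cbs* (-0.25, SE 0.30) and *Gldc* (-0.36, SE 0.45) did not pass, and each had standard errors as large as the difference. *Pla2g7*, a phospholipase that degrades platelet-activating factor, was higher in the PVN in 13 of 15 mice. It was at 73.8, 114 and 147 CPM in the PVN and at 59.3, 89.1 and 106 CPM in the ARC (+0.47, SE 0.08, adjusted p = 6.49e-05, edgeR). Its RefSeq promoter, shown above and lying inside the GENCODE gene, is the one of the 5 with the ACAAAG letters.

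All 3 receptors were called lower in the PVN: *S1pr1*, the sphingosine phosphate receptor (-0.52, SE 0.10), *Gpr37l1*, an orphan receptor of glia (-0.30, SE 0.11), and *Fgfr3*, the fibroblast growth factor receptor (-0.28, SE 0.12). Of the 5 secreted, matrix or calcium-binding proteins, *S100b* was lower in 15 of 15 mice, at 16.3, 25.6 and 42.5 CPM against 30.3, 44.2 and 63.9 CPM in the ARC (-0.68, SE 0.10, adjusted p = 1.78e-05, edgeR). The proteoglycan *Bcan* (-0.31) and the protease *Htra1* (-0.22) were called lower too. *Agt* (+0.11, SE 0.10) and *Clu* (-0.050, SE 0.07) did not pass, and their per-mouse differences lay on both sides of 0, with the PVN lower in 7 of 15 mice for both.

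The transcription regulators split. *Id4*, an inhibitor of basic helix-loop-helix factors, was higher in the PVN in 15 of 15 mice, at 65.6, 77.4 and 114 CPM against 30.6, 47.8 and 71.9 CPM in the ARC (+0.74, SE 0.09, adjusted p = 7.44e-07, edgeR). *Sox9*, which specifies astrocytes, was called lower (-0.28, SE 0.10), and *Hes5* did not pass (+0.32, SE 0.27). The 2 male PVN libraries with few PVN neuron transcripts, replicates 15 and 24, had *Id4* at 49.6 and 36.9 CPM, and in the other male PVN libraries it was at 50.3 CPM or more. Neither is among the 15 mice. *Id4*, *Pla2g7*, *S100b* and *Slc1a2* each overlap a gene on the other strand. So do *Glul*, *Slc6a11*, *Slc7a10*, *Slc7a11*, *Fgfr3*, *Ttyh1*, *Aldh1l1*, *Gldc*, *Htra1* and *Hes5*. Whether the counting used strand is not given in the sources used here, so reads of such pairs cannot be told apart. Replicate 15 also held the highest *Kcnj10* of the male PVN, at 227 CPM.

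**Figure D3:**
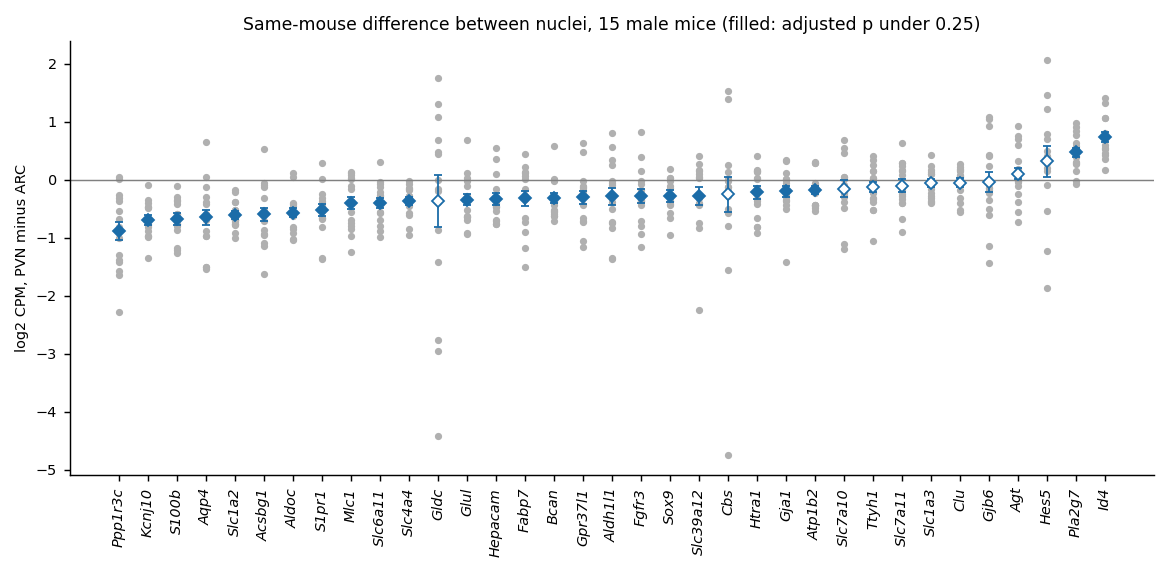
Difference in log2 CPM between PVN and ARC of the same mouse for each of the 35 genes. Grey points are the 15 mice, and diamonds the fitted difference ± SE, filled where the adjusted p is under 0.25. From Ppp1r3c (-0.89) to Atp1b2 (-0.17) 23 filled diamonds lie below 0, and those of Pla2g7 (+0.47) and Id4 (+0.74) lie above it.

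Most other lists also differed between the nuclei, in either direction. In the same 15 mice the mean of the members was lower in the PVN in 13 mice, by 0.28 ± 0.25 (SD) on the log2 CPM scale, and that of 40 other astrocyte genes in 14 mice, by 0.33 ± 0.28, with 25 of the 39 tested called lower and 1 higher. The pan-neuronal genes were lower by 0.47 ± 0.38, the oligodendrocyte genes by 0.47 ± 0.44 and 8 microglia genes by 0.49 ± 0.38, in 14, 13 and 14 of 15 mice. 8 vascular genes were higher in the PVN in 15 of 15, by 0.87 ± 0.42. PVN neuron genes were higher by 6.62 ± 0.92 and ARC neuron genes lower by 3.46 ± 1.11. The mean of 8 ependymal and tanycyte genes was lower in 13 of 15 mice, by 0.76 ± 0.70. That of the 12 reactive genes was lower in 9 mice and higher in 6, at -0.23 ± 0.57. Among the reactive genes *Gfap* was lower in the PVN (-0.74, SE 0.18, adjusted p = 0.00296, edgeR). The part of these lists in the difference of the members was not tested.

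In the ARC of WT mice on high-fat diet, the one member called was *Agt*, which was lower than on chow. *Agt* was at 71.0, 113, 73.3, 110.5, 119.9 and 64.1 CPM in replicates 44 to 49 on HFD and at 173 and 142 CPM in replicates 33 and 34 on chow. The groups did not overlap, and the fitted difference was -0.81 (SE 0.22, adjusted p = 0.178, edgeR). Here and below, the share of all genes whose groups did not overlap was not counted, and ranges of few libraries separate easily. Of the 35 members 1 was called, and 1.16% of all 15753 genes tested were, 0.66% as lower. The median of the members was -0.31, against +0.017 over all genes tested, and 27 of 35 were negative.

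The call rests on few libraries. There were 2 chow-fed WT mice, and without replicate 33, 34, 44 or 46 in turn the adjusted p of *Agt* was above 0.25 and no member was called. Without replicate 44 and the other libraries whose weights join different genotypes it was also lost (-0.72, adjusted p = 0.368, edgeR), while DESeq2 called 5 members and limma voom 7.

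At an unadjusted p under 0.05 there were 7 members, beside 8.54% of all genes tested. *Glul* was at 353 ± 89.3 CPM on HFD (SD, n = 6) and at 525 ± 96.5 CPM on chow (n = 2), and *Fgfr3* at 43.2 ± 11.4 and 73.1 ± 8.78 CPM, neither with overlap. *Fabp7* was at 23.1 ± 7.51 and 40.7 ± 2.47 CPM, again with no overlap, and *Ttyh1* and *Pla2g7* were lower with overlapping ranges. *Id4* lay the other way, at 47.3, 62.3 and 71.9 CPM (lowest, median and highest of 6) on HFD and 39.0 and 30.6 CPM on chow (+0.76, SE 0.24, adjusted p = 0.266, edgeR). None of these 6 passed the adjusted threshold.

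Markers of other cells moved with diet in the same libraries. The mean of the ARC neuron genes was 5.11 ± 0.79 log2 CPM on HFD (n = 6) and 3.20 ± 0.29 on chow (n = 2), with *Cartpt* and *Tbx3* called higher, and that of oligodendrocyte genes was 4.56 ± 0.42 and 5.36 ± 0.07, with *Mbp* and *Mobp* among those called lower. Of the reactive genes *Gfap* (+1.90, SE 0.56, adjusted p = 0.231, edgeR), *Serpina3n* (+2.82) and *Cd44* (+2.08) were called higher. *Gfap* was at 137 ± 80.0 CPM on HFD and at 37.5 and 34.2 CPM on chow. Their part in the difference of the members was not tested.

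In the PVN the same diet gave no call among the members. By edgeR, DESeq2 and limma voom 0 of 35 were called, where 1.43% of 17576 genes (251) were called by edgeR, and at an unadjusted p under 0.05 there was 1 member, beside 10.3% of all genes. That was *Kcnj10*, at 119 ± 30.4 CPM on HFD (n = 6) and 164 ± 56.5 CPM on chow (n = 3), with overlapping ranges (-0.51, SE 0.24, adjusted p = 0.471, edgeR). The chow value includes replicate 15, at 227 CPM, and without that library the difference was -0.18. In the positive direction *Hes5* had the smallest p (+0.74). The median of the members was -0.068, against -0.032 over all genes tested. Without replicate 15 it was +0.012, with 1083 of 19990 genes called, and without replicate 26 82 of 17421 genes were called, and 0 members in both. The mean of the members was 5.93 ± 0.21 log2 CPM on HFD and 5.92 ± 0.17 on chow, and replicate 23 on HFD stood highest at 6.34.

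The effect of diet on the members was not shown to differ between nuclei in the fit over all male groups. There 0 of 35 members differed in their HFD effect between ARC and PVN by edgeR or DESeq2, with 0.0187% of all 21400 genes called by edgeR and 27 genes by DESeq2, and 1 member, beside 5.62% of all genes, had an unadjusted p under 0.05, *Agt* (-0.74, SE 0.32, adjusted p = 0.86, edgeR). In the fit with the mouse as a block, over the mice with both nuclei, *Ttyh1* (-0.80, SE 0.26, adjusted p = 0.146, edgeR) and *Glul* (-0.70, SE 0.24, adjusted p = 0.205, edgeR) were called, with 2.2% of 19460 genes called, and *Agt* was at -0.68 (adjusted p = 0.396, edgeR). Only 2 chow-fed WT mice enter that fit.

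**Figure D4:**
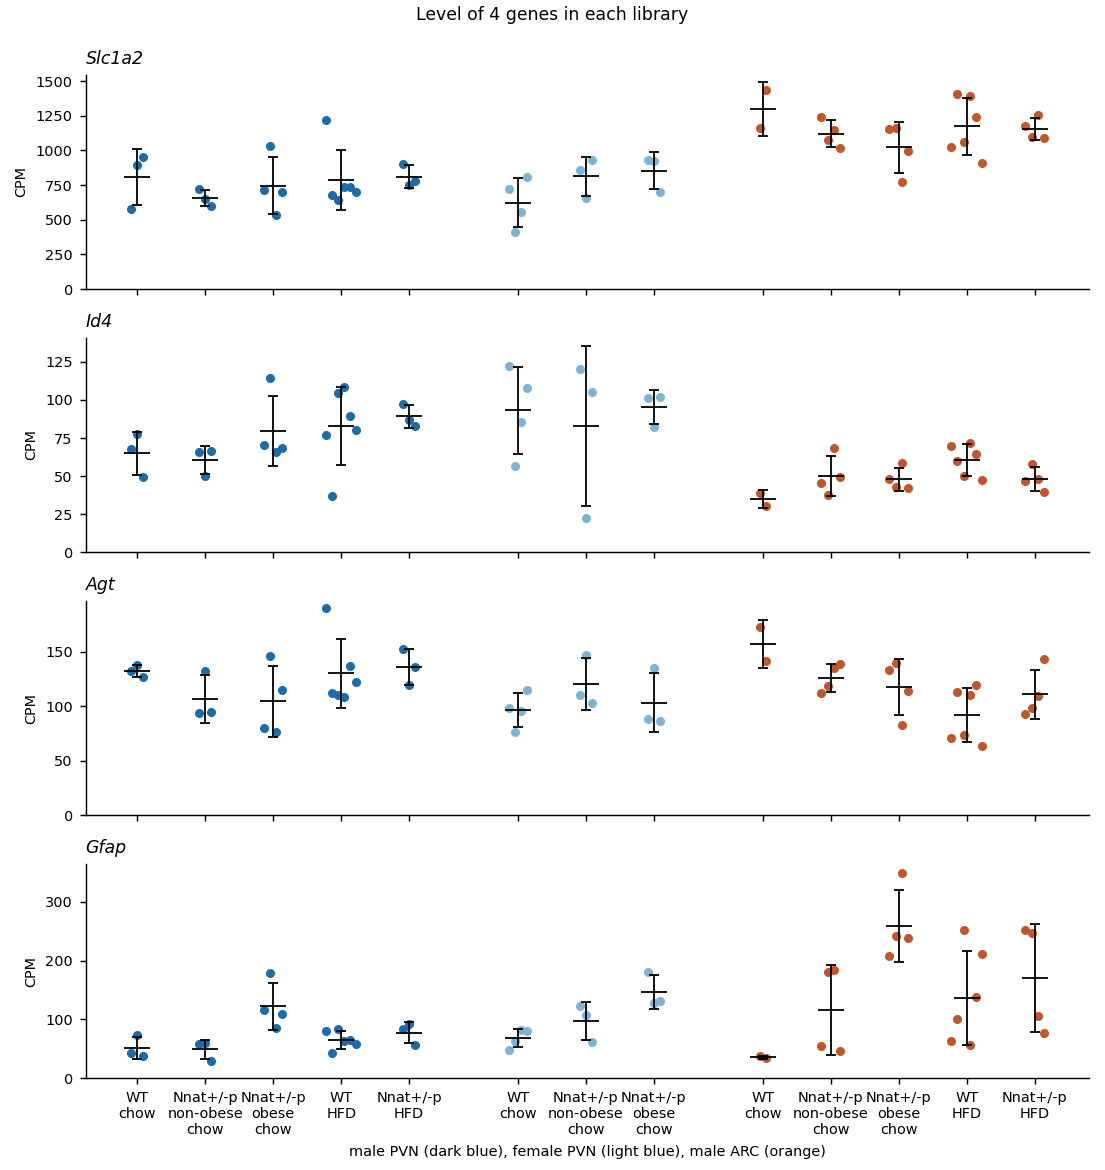
CPM of Slc1a2, Id4, Agt and Gfap in each library, by group, with the group mean and SD. Slc1a2 is higher and Id4 lower in the ARC than in most PVN libraries, Agt lies at 142 and 173 CPM in the chow-fed WT ARC and at 119.9 CPM or less in the HFD-fed WT ARC, and the group mean of Gfap is 259 CPM in the obese ARC and 35.8 CPM in the chow-fed WT ARC.

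No member was called between genotypes or between weight classes, in either nucleus or sex or on either diet. In the 9 comparisons among chow-fed groups and the 2 between genotypes on HFD, 0 of 35 members were called by edgeR, and the same was found with DESeq2 and limma voom. By edgeR 0% to 0.0256% of the genes tested were called in these comparisons, and DESeq2 called 82, 47 and 52 of 15485 genes in the 3 of the female PVN and 0 to 19 in the others, and *Nnat* itself was called in each comparison of genotypes. The absence of a call does not show that the members did not differ.

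In the male PVN on chow, the median of the members was -0.074 in obese *Nnat*+/-p against WT mice, where 0.0256% of genes were called, -0.11 in non-obese against WT (0.0128%), and +0.040 in obese against non-obese (0%). Over all genes tested the medians were -0.014, -0.0062 and -0.0043 in the same order. Without replicate 15 the medians of the members against WT were -0.0013 in the obese and -0.056 in the non-obese. At an unadjusted p under 0.05 there were 1, 0 and 0 members, beside 3.52%, 2.56% and 1.66% of all genes. The mean of the members was 5.79 ± 0.32 log2 CPM in obese (n = 4), 5.82 ± 0.15 in non-obese (n = 3) and 5.92 ± 0.17 in WT mice (n = 3), and the groups overlapped. *Aqp4* had the smallest p of any member in the obese, at 150.1, 85.7, 56.6 and 62.7 CPM in replicates 16, 17, 20 and 21 and at 39.5, 64.2 and 66.1 CPM in WT. The ranges overlap and replicate 16 stands highest (+0.63, SE 0.31, adjusted p = 1.00, edgeR), and without it the difference was +0.28. *Gfap* was at 122 ± 39.6 CPM in the obese and 51.8 ± 19.1 CPM in WT, with no overlap, and was not called (adjusted p = 0.607, edgeR).

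In the female PVN no member was called, and *Glul* had the smallest p of the members in both comparisons of the obese. It was at 395, 449.6 and 399.5 CPM in obese *Nnat*+/-p (replicates 6, 8 and 12), at 322, 240.5 and 307 CPM in non-obese (9, 10 and 11) and at 278, 248, 309.5 and 278 CPM in WT mice (1 to 4). The obese lay above both other groups with no overlap, by 0.53 (SE 0.21) against WT and 0.50 (SE 0.23) against non-obese, and neither passed (adjusted p = 1.00 in both, edgeR), where 0.0129% and 0% of genes were called. *Glul* was the only member at an unadjusted p under 0.05 in both, beside 3.18% and 3.06% of all genes. Against WT the medians of the members were +0.015 in the obese and +0.030 in the non-obese (0.00646% called, with 0 members and 4% of all genes at an unadjusted p under 0.05), and against non-obese +0.047. Over all genes tested the medians against WT were -0.051 in the obese and -0.088 in the non-obese. In the positive direction *S100b* had the smallest p in non-obese against WT mice, at 109.6 CPM in replicate 10 and 47.7 CPM or less in the other 2 libraries of that group. Replicate 10 also had the lowest mean of the members of all libraries, 5.42, with *Aqp4* at 14.1 and *Id4* at 22.7 CPM.

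In the ARC on chow, the median of the members was -0.19 in obese *Nnat*+/-p against WT mice, with 27 of 35 negative, against +0.025 over all genes tested. There 0.0205% of genes were called, and 4 members were lower at an unadjusted p under 0.05 (*Ttyh1*, *Fabp7*, *Agt* and *Slc6a11*), beside 2.59% of all genes in either direction and 1.24% lower. *Agt* was at 133, 139.8, 82.5 and 114 CPM in the obese (replicates 36, 37, 41 and 42), below the 173 and 142 CPM of WT. *Slc6a11* was at 276 ± 63.5 CPM in the obese (n = 4) and 359 ± 12.6 CPM in WT (n = 2), also with no overlap. The 2 chow-fed WT libraries are the same that the HFD-fed mice were compared with. In the non-obese the median was -0.055 against WT (0.0136% called), and *Fabp7* was the 1 member at an unadjusted p under 0.05, beside 1.9% of all genes, at 21.9 ± 11.3 CPM (n = 4 libraries, replicates 39 and 40 included) and 40.7 ± 2.47 CPM in WT.

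The ARC median was -0.11 when the obese were set against the non-obese, with 28 of 35 negative (0.00682% of genes called), and 2 members, beside 4.25% of all genes, had an unadjusted p under 0.05. The median over all genes is not given here, so an offset shared by all genes cannot be told apart. *Aqp4* went the other way from most members, at 95.2, 83.2, 162 and 123 CPM in the obese and 72.8, 71.0, 99.9 and 70.7 CPM in the non-obese (replicates 38, 39, 40 and 43). The ranges overlap only through replicate 40 (+0.54, SE 0.20, adjusted p = 0.999, edgeR). The mean of the ARC neuron genes was 4.26 ± 0.28 log2 CPM in the obese (3.84 to 4.47), 2.82 ± 0.76 in the non-obese (1.85 to 3.71) and 3.20 ± 0.29 in WT mice, with no overlap between the obese and either other group, and its part in the differences of the members was not tested. *Cbs* was at 7.78 ± 3.85 CPM in the obese and 15.3 ± 4.17 CPM in the non-obese. *Gfap* was at 259 ± 61.5 CPM in the obese, 116 ± 76.0 CPM in the non-obese and 35.8 ± 2.33 CPM in WT mice, and was called in obese against WT (+2.84, SE 0.46, adjusted p = 0.0149, edgeR).

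On HFD, the medians of *Nnat*+/-p against WT mice were +0.068 in the PVN, with 26 of 35 positive and 0.00569% of genes called, and +0.070 in the ARC, with 25 positive and 0.0127% called. For these too the median over all genes is not given here, so a shared offset cannot be told apart. At an unadjusted p under 0.05 there were 0 members in the PVN, beside 0.99% of all genes, and 2 in the ARC, beside 4.54%. *Slc7a10* had the smallest p in the ARC. It was at 26.9, 25.9, 31.1 and 24.6 CPM in *Nnat*+/-p (replicates 50 to 53) and at 13.5, 15.2 and 19.6 CPM (lowest, median and highest of 6) in WT mice, with no overlap (+0.81, SE 0.25, adjusted p = 0.999, edgeR). In the PVN on HFD *Hepacam* and *Slc7a11* had the smallest p in either direction, at +0.31 and -0.38.

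The difference in the obese against WT effect between ARC and PVN, and between the male and the female PVN, was called for 0 of 35 members by edgeR and by DESeq2. By edgeR 0% of all genes were called in both, and by DESeq2 35 of 21400 and 158 of 18708. At an unadjusted p under 0.05 there were 0 members in both, beside 6.96% and 5.48% of all genes.

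**Figure D5:**
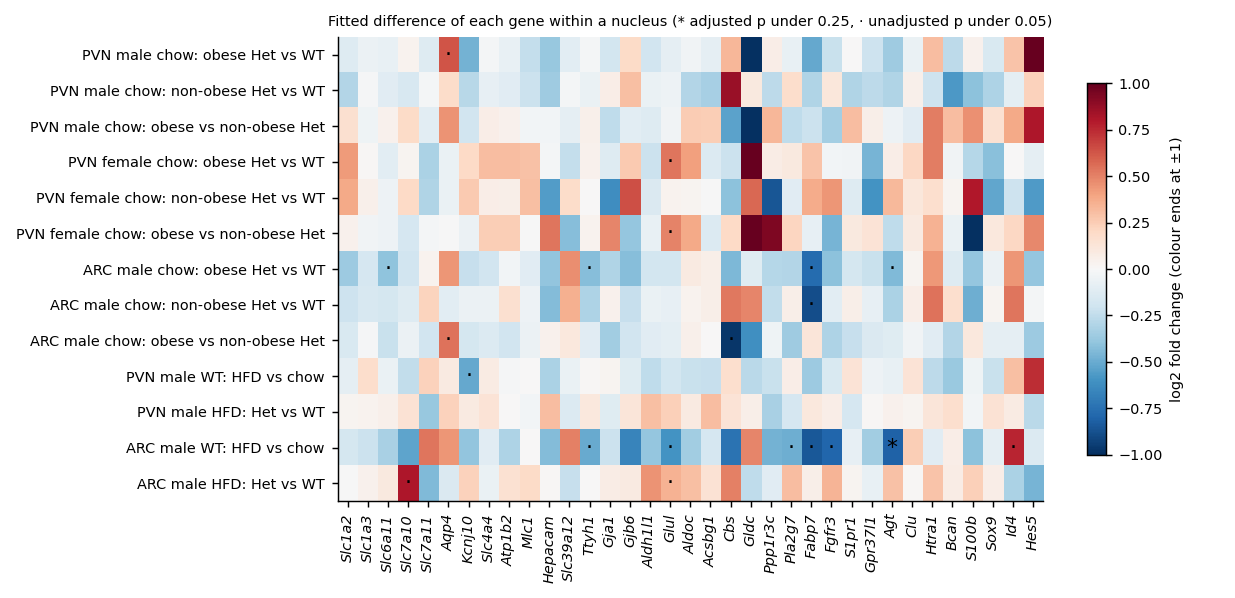
Fitted log2 fold change of each of the 35 genes (columns, ordered by role) in the 13 comparisons within a nucleus (rows), from blue (lower) to red (higher), with colours ending at ±1. The one star is Agt in the ARC of WT mice on HFD (-0.81), and dots mark unadjusted p under 0.05.

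*Aqp4* and *Htra1* were among the members that varied with *Gfap* in both nuclei. With each group centred on its mean, *Aqp4* followed *Gfap* in the 20 ARC libraries (r = 0.65), the highest of the 35 members there, and in the 19 male PVN libraries (r = 0.37), and *Htra1* did so at r = 0.43 and r = 0.56. Over the 39 libraries the r of *Aqp4* with the reactive genes other than *Gfap* was -0.022. In the ARC 27 of 35 members had an r below 0 with *Gfap*, among them *Acsbg1* (r = -0.64), *Glul* (r = -0.56) and *S1pr1* (r = -0.54). In the PVN 32 of 35 were above 0, with *Clu* (r = 0.73) and *Pla2g7* (r = 0.61) highest. These were looked at after the values were seen, and libraries of a nucleus share a table.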

How the data were processed

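RNA from laser-captured nuclei was made into stranded total RNA libraries from low input and sequenced as single-end reads. The authors deposited 3 tables of raw read counts per Ensembl gene, aligned with STAR 2.5.0a to GRCm38 per the submitters' processing notes, while the counting tool, annotation release and strand setting are not given in the sources used here. Reads carry no molecular identifiers, so counts are not independent molecules. Of 53 libraries 49 were used: 3 of very low total count and 1 labelled ARC but listed with the PVN table were left out. Symbols came from GENCODE M21.

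Counts were filtered (filterByExpr, minimum count 10), scaled by TMM and tested with the quasi-likelihood test of edgeR 4.0.16 in R 4.3.3, with Benjamini-Hochberg adjustment over all genes and a threshold of 0.25. Comparisons among chow-fed groups were fitted on the chow-fed groups of that nucleus and sex. Comparisons of diet, and of genotype on HFD, were fitted on all male groups of that nucleus. PVN and ARC were compared with mouse as a block in 15 mice matched on genotype, diet and labelled weight, and deviations of same-mouse libraries from their group means correlated at -0.04 to 0.15. CPM used TMM over the 49 libraries, and mean log2 CPM a prior count of 2. No 2 replicates agreed within sampling noise. Alternatives were DESeq2 1.42.0, limma 3.58.1 voom with quality weights, RLE scaling, no scaling factor, other filters, thresholds and sample sets, and leaving out each library. The fits were tested on simulated data. Members named are, per comparison, up to 6 called per direction with the smallest p, or the one with the smallest p where none was called, beside Nnat and Gfap and the 10 genes most like the mean of the members, while others were named after their values were seen. Some genes that this rule or these lists hold are not reported here. The members and lists were chosen with earlier results of these data known.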

Additional observations from a re-analysis of the deposited data

Results flagged for a closer look

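Of 77 groups of 4 to 10 values examined, 8 held a library whose gap to its nearest neighbour passed Dixon's 95% limit, and chance flags about 1 in 20 groups. Replicate 23 of the HFD-fed WT PVN was high in 4 of them. Its mean of the 35 members was 6.34 log2 CPM, its *Slc1a2* 1217 CPM, its *Acsbg1* 70.5 CPM and its *Slc7a11* 61.2 CPM. *Slc7a11* was also high in replicate 47 of the HFD-fed WT ARC, at 77.2 CPM. *Id4* stood at 114 CPM in replicate 17 of the obese male PVN, *Aqp4* at 99.9 CPM in replicate 40 of the non-obese ARC, and *Kcnj10* was low in replicate 39 of the same group, at 189 CPM. The causes were not tested.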

How the results depend on the processing

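Calls among the members changed with the processing mainly in the ARC of WT mice on HFD, where 1 of 35 was called. There the count was 0 at an adjusted p under 0.05 and without the libraries of conflicting weights, 5 by DESeq2, 2 with RLE scaling, 4 without the low-count filter, keeping genes with totals over 1, 7 by limma voom, 4 with only the 2 groups, 3 with replicates 39 and 40, which share a weight, summed, and 0 to 5 when 1 library was left out (0 without 33, 34, 44 or 46, and 5 without 45). *Agt* ranged from -0.96 to -0.61 over the settings (adjusted p 0.0289 to 0.368) and was not called with all labelled libraries (adjusted p = 0.279). With all labelled libraries, the shallow ones included, the median of the members became 0.021 there, 0.028 in obese against WT ARC, 0.27 in non-obese against WT ARC, and in the female PVN -0.27 in obese against non-obese, -0.091 in obese against WT and 0.31 in non-obese against WT. With no scaling factor, chosen after seeing the data, it became 0.13 in non-obese against WT ARC, -0.25 in obese against non-obese ARC and 0.093 between nuclei, -0.049 in obese against non-obese male PVN, -0.17 in the WT PVN on HFD and 0.21 between genotypes in the ARC on HFD. Leaving out 1 library moved it from -0.12 to 0.051 in non-obese against WT ARC (without 33 and 34), and it also spanned 0 in the male PVN in obese against WT (-0.20 to 0.026), obese against non-obese (-0.087 to 0.17), WT on HFD (-0.18 to 0.012) and genotypes on HFD (-0.023 to 0.17), and in the female PVN in obese against WT (-0.064 to 0.15), non-obese against WT (-0.031 to 0.076) and obese against non-obese (-0.0057 to 0.19). *Gldc* in obese against non-obese male PVN ranged from -2.59 to 0.17 and reversed without replicate 19. Between nuclei 17 to 27 members were called over the settings, 22 to 26 with 1 mouse left out, and 24 with no replicate block. With the replicate block, 2 members differed in their HFD effect between nuclei instead of 0. The causes were not tested. No alternative failed. In the other 12 comparisons within a nucleus, every alternative gave 0 calls among the members. Depth limits *Gldc*, *Cbs* and *Hes5*, which had no count in some libraries.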

Other observations

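4 libraries entered no comparison. The library numbered 32, labelled ARC but assigned to the PVN table, had 7348988 counts, all 35 members with a count, a summed level of 4721 CPM over the members, 1254 CPM over 5 PVN neuron genes and 29.0 CPM over 6 ARC neuron genes. Library 35 had 271324 counts with 25 members seen and a summed level of 5116 CPM, beside 682 CPM of PVN neuron genes and 51.6 CPM of ARC neuron genes, library 7 had 812815 counts with 24 members seen and 579 CPM, and library 5 had 2302 counts with 1 member seen.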
